A study of Danio rerio with 56 samples.

Results

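The transcripts described here are abundant in unfertilised zebrafish eggs and partly cleared by 10 hours post fertilisation (hpf), so that a measurable remainder is still present in the embryo. They were chosen from the control libraries alone. A row of the deposited tables qualified when its mean in control eggs was at least 10 TPM (a level scaled to library size and transcript length) and its mean in control embryos lay between 6.25% and 25% of that egg level. Of 57192 rows, 11597 reached 10 TPM in control eggs and 2416 of those lay within the limits. The 200 with the highest egg level were taken and are called the members. The last member had 93.7 TPM in control eggs and the next row, which was not taken, had 93.5 TPM. The lowest member kept 6.31% of its egg level and the nearest equally abundant row below the limit kept 6.20%. The highest member kept 24.9% and the nearest row above the limit kept 25.2%. Levels in control eggs and control embryos therefore describe the choice and are given without a test.

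An egg is loaded by its mother with the RNA that runs the first hours of development, before the embryo's own genome is active. These maternal RNAs are then removed in stages. Part of the removal needs only factors laid down in the egg, and part waits for products of the embryo's genome, among them a family of microRNAs that shortens the poly(A) tails of its targets. Codon content and RNA methylation also bear on how long a maternal transcript lasts. At 10 hpf a zebrafish embryo is at the end of gastrulation, and transcripts that still hold a share of their egg level include those cleared slowly and those that are cleared and made anew. Bulk RNA levels do not separate these cases, nor fewer cells holding an RNA from less RNA per cell, nor loss of an RNA from growth of the rest of the RNA pool.

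The study fed adult fish of the 5D strain flakes carrying benzo[a]pyrene (BaP, a product of incomplete combustion and a polycyclic aromatic hydrocarbon) or acetone alone, for 21 days from an age of 120 days. The BaP diet held 25 µg per g of fish, or 1250 µg per g of food. The crosses ask what the father's, the mother's or both parents' diet does to the RNA of the offspring. Each of 6 groups had 4 RNA libraries. In father BaP embryos the male parent alone had eaten BaP. In mother BaP embryos the female parent alone had eaten it. Both BaP embryos are labelled only as BaP at 10 hpf and were read as having BaP-fed parents on both sides, because the other crosses carry labels of their own. Control embryos had parents fed acetone alone. BaP eggs came from BaP-fed mothers and control eggs from control mothers. All groups were of the same strain, and the labels name no exposure of the embryos themselves. The labels do not say how many eggs or embryos, or which tank, a library came from, so each p-value sets a difference against the spread of these libraries alone. The deposited rows carry transcript identifiers, and 0 of 57192 could be paired with a gene symbol in the tables used here. Gene names, functions and marker checks of eggs and embryos are therefore not given, and transcripts are named by identifier.

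Library totals ran from 26010776 to 55044612 estimated counts. The median member had 519 to 889 estimated counts in an embryo library and 4320 to 6773 in an egg library, and at most 1 member was at 0 in any library. Both BaP replicate 2 had a larger median remainder of the members than the other 3 of its cross. It was picked out by its values. The main shares and the members' median fold changes are given with and without it. Other values of both BaP embryos include it unless stated. Counts in the files are estimates that divide reads among transcripts sharing sequence. For 56 of the 200 members (28%) the estimate was a whole number in all 24 libraries, against 20.4% of the rows with at least 10 TPM in control eggs. A member without whole counts can differ between libraries because its reads were divided differently.

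The members made up 4.12% to 4.52% of all TPM in the BaP egg libraries and 4.44% to 4.57% in the control egg libraries. Their level in control eggs had a median of 148 TPM, with 25th and 75th percentiles of 113 and 220 TPM, and a highest value of 2905 TPM. Most members therefore lay within a narrow range above the lower bound, and a few stood far above it. Lengths ran from 150 to 5290 bases with a median of 1571 bases. The other rows with at least as much TPM in control eggs had a median length of 1490 bases where under 6.25% remained (349 rows), 1604 bases where over 25% to 50% remained (198 rows), 1145 bases where 50% to 200% remained (567 rows) and 997 bases where over 200% was reached (250 rows). Members were thus of similar length to the rows cleared further and to those cleared less, and longer than rows that held their level or rose. Among the 200 members, the remaining share in control embryos had little rank correlation with length (Spearman's rho -0.10) or with the egg level (rho -0.04), both over members that share the same libraries. The choice held the share between 6.25% and 25% and set a lower bound on the egg level, which also divides the share. These correlations therefore describe the members alone and not egg transcripts at large.

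The most abundant member, ENSDART00000150326.2, is 150 bases long, shorter than most sequenced fragments. The authors' tables give it an effective length, the number of positions a fragment could start from, of 1 base in all 8 egg libraries and of 1 or 2 bases in the embryo libraries. Its level of 2905 ± 915 TPM in control eggs (SD, n = 4) rested on only 54.0 to 130.0 estimated counts, and its 458 ± 240 TPM in control embryos on 13 to 21. The control embryo libraries with an effective length of 2 bases gave 255 and 253 TPM, and those with 1 base gave 602 and 722 TPM. Its rank as most abundant therefore belongs to the TPM scale. The other 6 members under 500 bases had effective lengths of 26 bases or more. The next member by egg level, ENSDART00000063800.7 (1331 bases), had 199, 282, 132 and 208 TPM in control embryos, against 1511, 1177, 1403 and 1561 TPM in control eggs. The member next in rank, ENSDART00000004716.10, had 166 ± 26.9 TPM in control embryos and 1392 ± 203 TPM in control eggs, and the one after it, ENSDART00000063357.6, had 223 ± 16.6 TPM in control embryos and 1190 ± 60.5 TPM in control eggs (SD, n = 4).

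The fall from egg to embryo was next examined in libraries that the choice did not use, those of BaP-fed mothers. All 200 members could be tested in a fit of the 12 libraries of BaP eggs, mother BaP embryos and both BaP embryos. In both BaP embryos 197 members were lower than in BaP eggs, and 197 were lower in mother BaP embryos than in BaP eggs (edgeR quasi-likelihood test, Benjamini-Hochberg adjusted p under 0.05). Of the 32662 transcripts tested, 35.4% were lower in both BaP embryos and 35.9% in mother BaP embryos. No member was higher. DESeq2, run without the expression filter, called 196 members lower in each comparison. It called 53.8% and 54% of its 49877 transcripts in either direction. TPM of all 4 embryo libraries lay below all 4 egg libraries for 195 members in both BaP embryos and 196 in mother BaP embryos, against 40.4% and 41.7% of all transcripts. The median log2 fold change of the members was -2.17 in both BaP embryos and -2.24 in mother BaP embryos, against 0.05 for all transcripts tested in each comparison. The 10th and 90th percentiles over members were -3.01 and -1.55 in both BaP embryos and -3.11 and -1.64 in mother BaP embryos. Without both BaP replicate 2 the median for both BaP embryos was -2.40. These 2 comparisons share the BaP egg libraries. With upper-quartile factors in place of TMM factors the median of all transcripts moved to 0.29 in each and the members' medians to -1.94 and -2.0015, so the size of the fall depends on the scale while the count of 197 did not change.

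Single members show how steep this fall was. ENSDART00000063800.7 had 223, 238, 289 and 166 TPM in both BaP embryos, 280, 199, 270 and 183 TPM in mother BaP embryos, and 1316, 2230, 1955 and 1186 TPM in BaP eggs. Neither embryo group overlapped the eggs. Its log2 fold change was -2.47 ± 0.24 in both BaP embryos (SE, edgeR adjusted p = 2.51e-06) and -2.38 ± 0.24 in mother BaP embryos (SE, edgeR adjusted p = 3.12e-06). ENSDART00000150326.2 had 386, 681, 609 and 636 TPM in both BaP embryos, 388, 478, 286 and 430 TPM in mother BaP embryos, and 2148, 3295, 1788 and 2673 TPM in BaP eggs. The counts behind these levels were 11 to 19 in embryos and 51 to 137 in eggs. On the count scale its log2 fold change was -1.39 ± 0.31 in both BaP embryos (SE, edgeR adjusted p = 0.00159) and -1.85 ± 0.32 in mother BaP embryos (SE, edgeR adjusted p = 0.000224).

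The same 3 members did not pass in either comparison, and all 3 varied widely among the BaP egg libraries themselves. ENSDART00000148397.2 (834 bases) had 0, 0.518, 3.54 and 3.89 TPM in both BaP embryos, 0.635, 0, 0 and 6.29 TPM in mother BaP embryos, and 0, 100.3, 15.3 and 17.9 TPM in BaP eggs (edgeR adjusted p = 0.0877 and 0.0774). ENSDART00000184847.1 (207 bases) had 5.98, 24.3, 34.8 and 38.2 TPM in both BaP embryos, 29.5, 19.7, 2.31 and 35.6 TPM in mother BaP embryos, and 131, 256, 0 and 139.9 TPM in BaP eggs (edgeR adjusted p = 0.153 and 0.119). ENSDART00000180060.1 (948 bases) had 18.3, 59.5, 27.1 and 23.7 TPM in both BaP embryos, 12.6, 60.8, 24.9 and 60.1 TPM in mother BaP embryos, and 33.5, 228, 18.7 and 86.4 TPM in BaP eggs (edgeR adjusted p = 0.189 and 0.335). Each of the 3 thus had embryo libraries inside the range of the eggs. They were picked out after their values were seen. None of the 3 had whole counts in all libraries, and the part that the division of reads plays in their spread was not tested. Among all members, the highest BaP egg library exceeded 2 times the lowest for 20 members, and control egg libraries did so for 6. In either group it held for 21 members, of which 3 had whole counts.

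The choice itself was repeated on the BaP side. When the same limits and number were applied to BaP eggs and both BaP embryos, 169 of the 200 rows so chosen were members, a share of 84.5% of each list. The egg level of the members ranked alike in BaP and control eggs (Spearman's rho 0.96 over 200 members), and so did the remaining share in both BaP embryos over BaP eggs and in control embryos over control eggs (rho 0.91). Both sides share the strain, the annotation and the way reads were divided among transcripts.

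The remaining share was then followed over the 4 crosses. For each embryo library it is the TPM of a member as a percentage of its mean TPM in the eggs of mothers on the same diet, and the median over the 200 members stands for the library. In father BaP embryos the medians were 15.5%, 14.0%, 14.7% and 16.6%. In mother BaP embryos they were 15.5%, 14.96%, 14.3% and 15.3%. In both BaP embryos they were 14.9%, 20.5%, 15.98% and 12.996%. In control embryos they were 13.9%, 15.4%, 13.7% and 14.9%. The 4 crosses overlapped, and the highest and the lowest library of all 16 both came from the cross with BaP on both sides. As a share of all TPM in a library, the members held 0.729% ± 0.0455 in father BaP, 0.692% ± 0.0223 in mother BaP, 0.753% ± 0.108 in both BaP and 0.679% ± 0.0202 in control embryos (SD, n = 4 each). Both BaP embryos held 0.704% ± 0.0546 without replicate 2 (SD, n = 3). Averages of the remaining share over libraries were 15.2% ± 1.14 for father BaP, 15.02% ± 0.560 for mother BaP, 16.1% ± 3.19 for both BaP and 14.5% ± 0.802 for control embryos (SD, n = 4 each). Without both BaP replicate 2 that cross averaged 14.6% ± 1.51 (SD, n = 3). The members were chosen from the control libraries, so this share is given without a test.

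**Figure D1:**
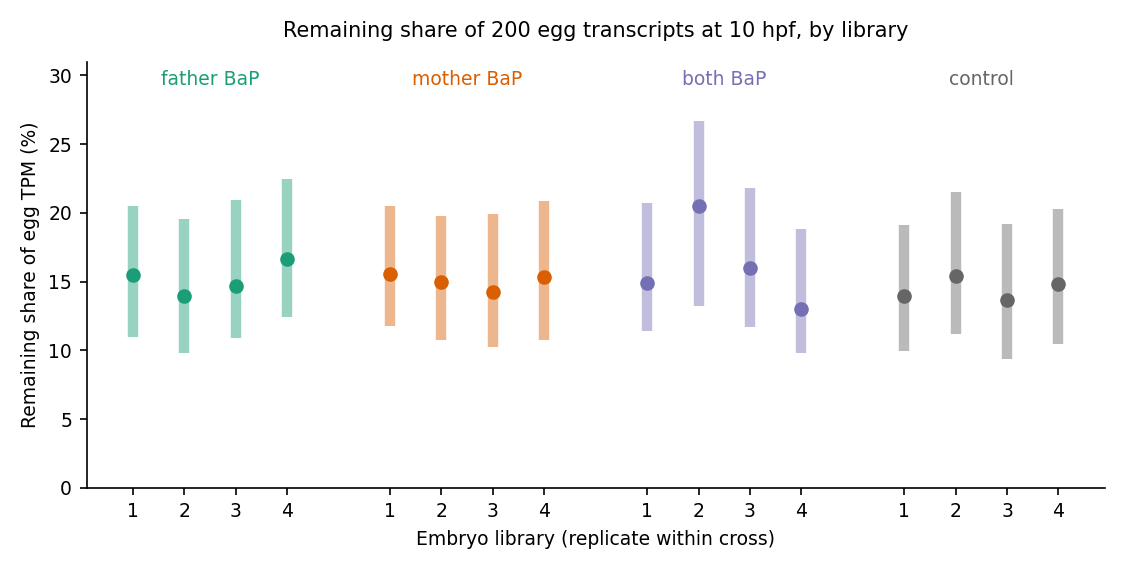
Remaining share of the 200 members in each of the 16 embryo libraries, as a percentage of the mean TPM in eggs of mothers on the same diet. Points are medians over members and bars run from the 25th to the 75th percentile; both BaP replicate 2 reached 20.5%, and the other 15 medians lay between 12.996% and 16.6%.

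The share of single members was compared next. Control embryos set the limits, so all 200 members lay between 6.25% and 25% there. In father BaP embryos 181 stayed within those limits, 16 were above and 3 below. In mother BaP embryos 184 stayed within, 13 were above and 3 below. In both BaP embryos 174 stayed within, 24 were above and 2 below, and without replicate 2 these counts were 186, 11 and 3. The 50 members with the smallest share in control embryos had medians of 8.97% in father BaP, 8.98% in mother BaP, 9.97% in both BaP and 8.43% in control embryos. The 50 with the largest share had medians of 23.4% in father BaP, 23.1% in mother BaP, 24.5% in both BaP and 23.0% in control embryos. Members cleared most in controls were thus cleared most in each cross, when taken in groups of 50. For father BaP embryos part of this is built in, because their share and the control share are divided by the same control egg levels. The shares of mother BaP and both BaP embryos are divided by BaP egg levels. The highest share of a single member was 34.0% in father BaP embryos and 43.2% in mother BaP embryos, in both crosses for ENSDART00000180060.1. The father BaP share is set against control eggs, and leaving out 1 control egg library gave 31.2% to 41.5%. The mother BaP share is set against BaP eggs, among which this member varied widely. Without BaP egg replicate 2 its share in mother BaP embryos was 85.7%, so that value rests on 1 egg library. In both BaP embryos the highest share was 39.4%, for ENSDART00000003670.8 (1103 bases), and leaving out 1 BaP egg library gave 36.0% to 43.3%. Without replicate 2 of that cross the highest share of any member was 36.6%. These members were picked out after their values were seen.

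**Figure D2:**
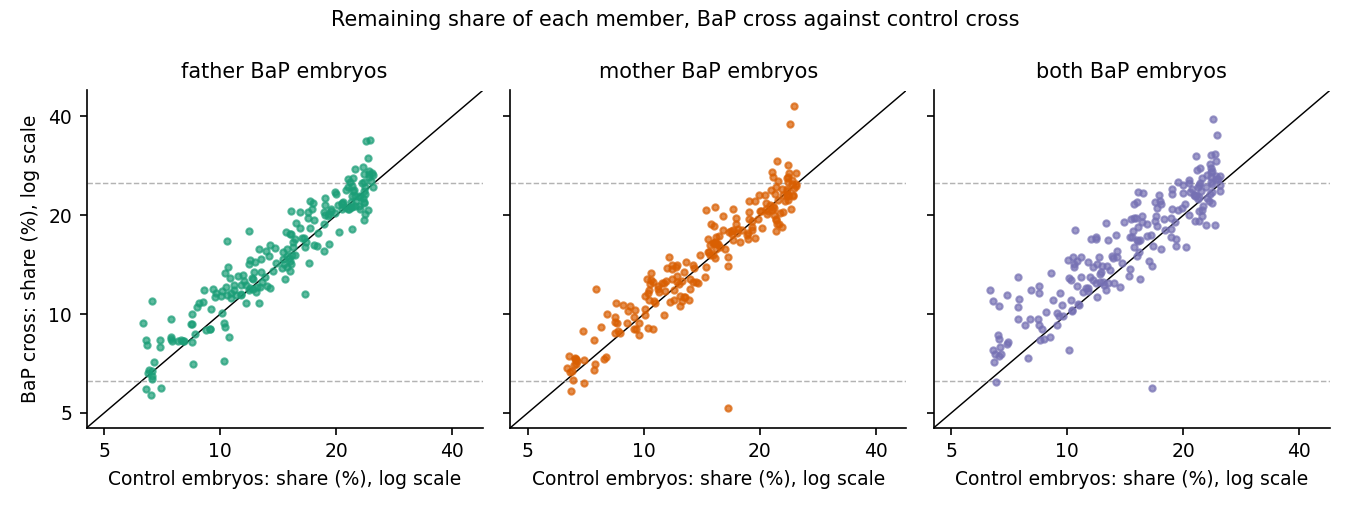
Remaining share of each member in father BaP, mother BaP and both BaP embryos (vertical, %, log scale) against control embryos (horizontal, %, log scale), 1 point per member. The line marks equal shares and dashed lines the limits of 6.25% and 25%; 181, 184 and 174 of 200 members lay between the limits in the 3 crosses.

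Both BaP replicate 2 was set against replicates 1, 3 and 4 of its cross for all rows at least as abundant in control eggs as the last member. For the members the median TPM ratio was 1.24, with 146 of 200 above 1, and replicate 2 was the highest of the 4 libraries for 116. Where under 6.25% remained in control embryos the median ratio was 1.58. Where over 25% to 50% remained it was 1.08. Rows that kept 50% to 200% had a median ratio of 0.995, and rows over 200% had 0.930. The ratio thus stepped down with the share that remained in control embryos, and the members lay between the rows cleared further and those cleared less. In replicate 2, 62 members were above 25% of their BaP egg level, against 21, 28 and 7 in replicates 1, 3 and 4. In the class under 6.25%, the median remaining share was 1.24% in both BaP replicate 2 and 0.555%, 0.938% and 0.657% in replicates 1, 3 and 4 of that cross. In father BaP replicates 1, 2, 3 and 4 it was 0.943%, 0.770%, 1.22% and 1.02%. It was 0.652% to 0.772% in the mother BaP libraries and 0.607% to 0.779% in the control embryo libraries. The labels do not say how both BaP replicate 2 differs from the others, and no cause was tested.

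**Figure D3:**
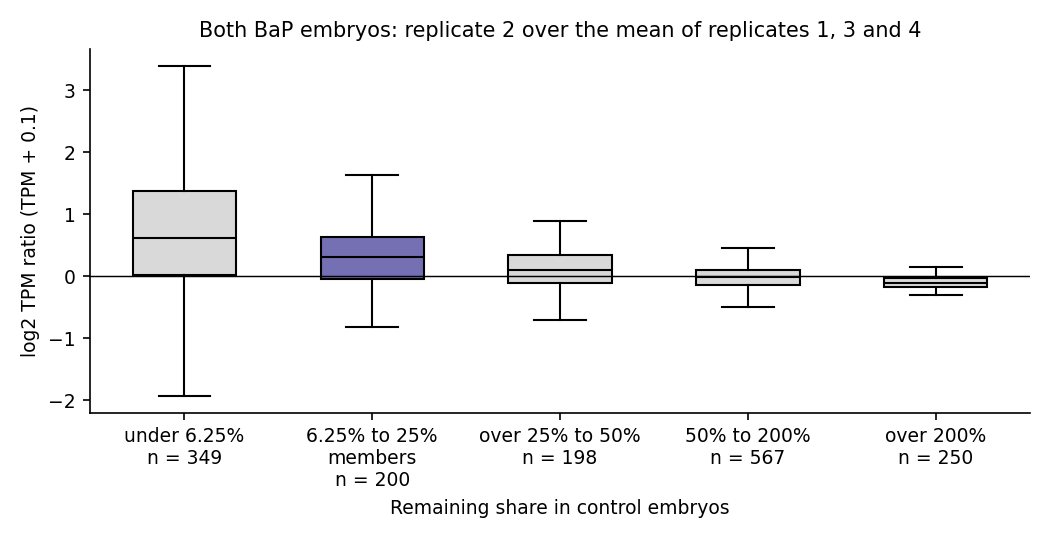
TPM in both BaP replicate 2 over the mean of replicates 1, 3 and 4 (log2 ratio, 0.1 TPM added to each), for rows as abundant in control eggs as the members, by the share remaining in control embryos. Boxes show quartiles with the median as a line, and whiskers reach to the furthest row within 1.5 box heights; the untransformed median ratio was 1.24 for the 200 members and 1.58, 1.08, 0.995 and 0.930 for the other classes in the order drawn.

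Levels in each BaP cross were compared with control embryos in 1 fit of the 16 embryo libraries, with adjustment over all 30894 transcripts tested. All 200 members were tested. The control libraries helped to choose the members, and counts below are given beside those of all transcripts. The choice bears on the members and not on transcripts at large, so this comparison does not remove its effect. Differences of members from control embryos, with their p-values, are therefore a description and not a test of BaP. In father BaP embryos no member passed in edgeR, where 0.424% of all transcripts did. At an unadjusted p under 0.05 there were 24 members (12%), against 11.1% of all transcripts. DESeq2, run without the expression filter, called 1 member, against 1.62% of its 49298 transcripts. DESeq2 shares of all transcripts in the embryo comparisons below are over the same 49298. The members' median log2 fold change was 0.19, and 175 of 200 were above 0, against a median of 0.01 and 51.3% of all transcripts. Other rows as abundant in eggs lay on the same side. Where 50% to 200% of the egg level remained, their median was 0.13, with 90.7% above 0. Where under 6.25% remained, it was 0.48 with 89.5% above 0, over the 324 of 349 rows that passed the filter. The same 324 rows stand for that class in the other edgeR fold changes of embryos below. Over all 349 rows its median log2 TPM ratio was 0.36. On the TPM scale the members' median log2 ratio in father BaP embryos was 0.08, with 135 of 200 above 0. TPM did not overlap between the groups for 12 members higher in father BaP embryos and 4 lower, where 1.36% and 6.54% of all transcripts did so.

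The transcript with the smallest p among members that did not overlap was ENSDART00000054981.5 (2672 bases). It had 50.9, 48.8, 52.3 and 50.7 TPM in father BaP embryos, against 39.3, 43.9, 48.6 and 46.0 TPM in control embryos. The father BaP libraries were all above the controls by a small margin (log2 fold change 0.30 ± 0.08, SE). The difference missed the threshold in edgeR (adjusted p = 0.120) and passed it in DESeq2 (adjusted p = 0.0160). These control embryos helped to choose the member, so the DESeq2 pass is not support for a difference. ENSDART00000190713.1 (2417 bases) had 7.22, 6.86, 9.93 and 8.43 TPM in father BaP embryos, against 10.8, 14.1, 10.4 and 10.7 TPM in control embryos. All father BaP libraries lay below the controls (log2 fold change -0.40 ± 0.12, SE, edgeR adjusted p = 0.193).

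In mother BaP embryos no member passed in edgeR, and 0% of all transcripts did. At an unadjusted p under 0.05 there were 9 members (4.5%), against 4.18% of all transcripts, and DESeq2 called no member, against 0.181% of all. The members' median log2 fold change was 0.04, with 120 of 200 (60%) above 0, against a median of 0.002 and 50.4% of all transcripts. Rows as abundant in eggs had 55.9% above 0 where under 6.25% remained and 57.1% where over 25% to 50% remained. They had 51.5% above 0 where 50% to 200% remained and 50.4% where over 200% was reached. TPM lay wholly above the controls for 4 members and wholly below for 5, against 1.52% and 1.71% of all transcripts. ENSDART00000171137.2 (1753 bases) had 39.4, 40.3, 39.3 and 34.6 TPM in mother BaP embryos, against 27.0, 30.7, 23.1 and 25.0 TPM in control embryos. It was the member of smallest p among those wholly above the controls (log2 fold change 0.54 ± 0.20, SE, edgeR adjusted p = 1). ENSDART00000129676.3 (1118 bases) had 16.2, 15.03, 14.2 and 12.9 TPM in mother BaP embryos, against 17.7, 16.8, 17.3 and 20.9 TPM in control embryos, and was wholly below (log2 fold change -0.35 ± 0.13, SE, edgeR adjusted p = 1).

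In both BaP embryos no member passed in edgeR against control embryos, where 0.00324% of all transcripts did. At an unadjusted p under 0.05 there were 32 members (16%), against 10.4% of all transcripts, and DESeq2 called no member, against 0.576% of all. The members' median log2 fold change was 0.11, with 138 of 200 above 0, against 54.25% of all transcripts, and it became -0.0042 without both BaP replicate 2. Rows as abundant in eggs had a median of 0.14 where under 6.25% remained, of 0.005 where over 25% to 50% remained and of -0.08 where 50% to 200% remained. On the TPM scale the median log2 ratio of the class under 6.25% was 0.17, and -0.02 without replicate 2. For the members it was 0.14, and 0.04 without replicate 2. TPM lay wholly above the controls for 9 members and wholly below for 1, against 3.43% and 1.26% of all transcripts. ENSDART00000127476.3 (2144 bases) had 27.6, 36.0, 25.2 and 22.6 TPM in both BaP embryos, against 21.9, 17.1, 17.8 and 19.2 TPM in control embryos (log2 fold change 0.49 ± 0.14, SE, edgeR adjusted p = 0.346). Its highest value came from replicate 2. ENSDART00000148397.2, described above for its spread among eggs, had 0, 0.518, 3.54 and 3.89 TPM in both BaP embryos, against 6.09, 40.8, 8.32 and 19.5 TPM in control embryos. Both BaP libraries were wholly below, and the test did not pass (edgeR adjusted p = 0.478).

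**Figure D4:**
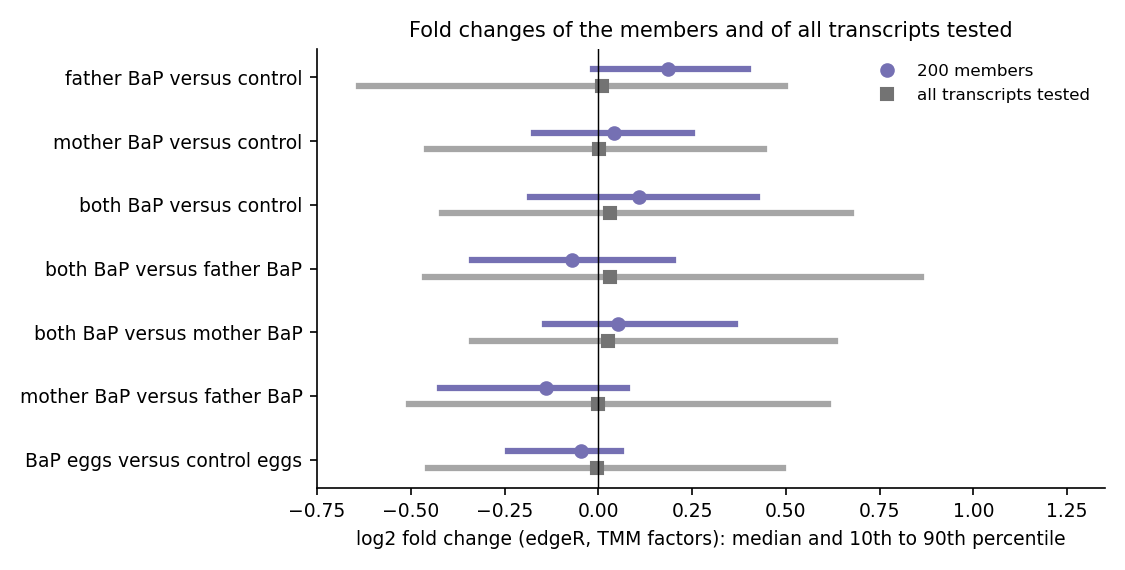
Log2 fold changes (edgeR, TMM factors) in 7 comparisons, the group named first over the group named second. Upper bars show the 200 members and lower bars all transcripts tested, with the median as a symbol and the bar from the 10th to the 90th percentile; members' medians ran from -0.14 for mother BaP versus father BaP to 0.19 for father BaP versus control.

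The crosses with BaP were then compared with each other, in the same fit of the embryo libraries. No control library enters these differences. The control embryos that helped to choose the members do enter the filter, the scaling and the estimate of spread behind each p. Both BaP embryos differed from father BaP embryos, a contrast that adds the mother's diet to the father's, in 2 members, 1 higher and 1 lower. That is 1.0% of the members, where 5.24% of all 30894 transcripts passed in edgeR, 3.16% higher and 2.08% lower. At an unadjusted p under 0.05 there were 23 members (11.5%), against 20.1% of all. DESeq2 called 6 members (3.0%), against 6.22% of all. The members' median log2 fold change was -0.07 and 71 of 200 were above 0, against a median of 0.03 and 53.0% of all transcripts. Without both BaP replicate 2 the members' median was -0.18. Rows as abundant in eggs had a median of -0.29 where under 6.25% remained and of -0.21 where 50% to 200% remained. TPM lay wholly above father BaP for 6 members and wholly below for 1, against 11.4% and 1.16% of all transcripts. The count of members called in edgeR was 8 without both BaP replicate 2, 4 without replicate 3 and 1 without replicate 4 of that cross, and 1 without father BaP replicate 3 or 4. It was 0 when only the 8 libraries of these crosses were fitted. The share of all transcripts that passed in each of these refits is not given. The counts thus show how the calls moved and not whether members differed from other transcripts.

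The member that was higher was ENSDART00000190713.1. It had 12.8, 10.8, 14.8 and 13.2 TPM in both BaP embryos, against 7.22, 6.86, 9.93 and 8.43 TPM in father BaP embryos. No library of one cross reached the range of the other, and the log2 fold change was 0.60 ± 0.12 (SE, edgeR adjusted p = 0.0129). In mother BaP embryos it had 11.5, 9.38, 11.3 and 10.4 TPM, a range that overlapped both of those crosses. Its egg levels, 126, 107, 112 and 123 TPM in BaP eggs and 124, 108, 108 and 109 TPM in control eggs, covered the same range. Its remaining share was 7.22% in father BaP, 9.09% in mother BaP, 11.1% in both BaP and 10.2% in control embryos. The call was kept without any 1 of the 8 libraries and ended in the fit of those 8 libraries alone (edgeR adjusted p = 0.0806).

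The member that was lower was ENSDART00000140947.2 (761 bases), named after its values were seen because its libraries overlap. It had 13.3, 17.5, 20.9 and 15.6 TPM in both BaP embryos, against 18.1, 20.6, 26.5 and 26.2 TPM in father BaP embryos. Both BaP replicate 3 lay above 2 of the father BaP libraries. The log2 fold change was -0.60 ± 0.16 (SE, edgeR adjusted p = 0.0427). The call ended without both BaP replicate 1, 2 or 4 or father BaP replicate 3 or 4 (edgeR adjusted p from 0.0648 to 0.124), without a filter (0.0651) and with the replicate block (0.0571). ENSDART00000054981.5 had 40.7, 48.1, 48.7 and 45.8 TPM in both BaP embryos, below the 48.8 to 52.3 TPM of father BaP embryos with almost no gap between them, and did not pass in edgeR (log2 fold change -0.25 ± 0.08, SE, adjusted p = 0.0764).

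**Figure D5:**
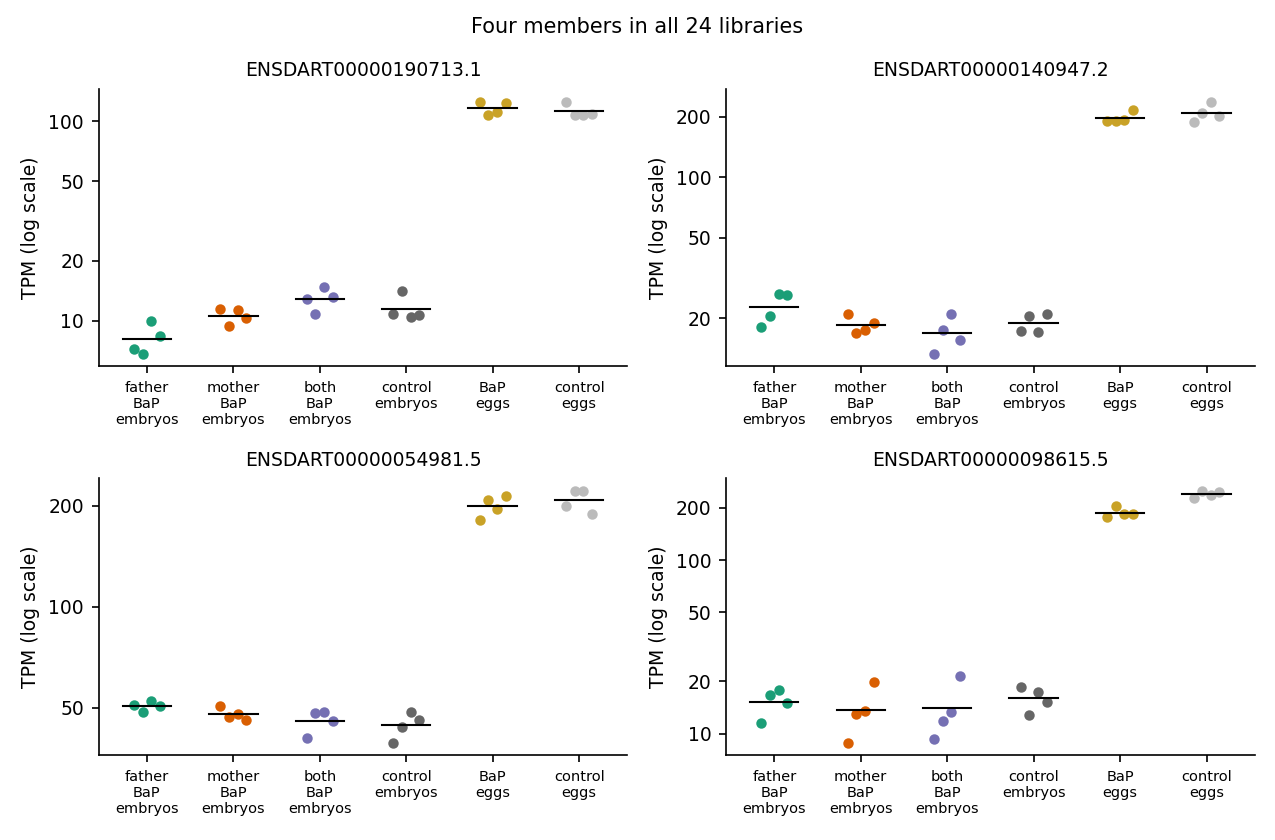
TPM (log scale) of 4 members in all 24 libraries, embryos to the left and eggs to the right. Control eggs and control embryos helped to choose the members. Points are libraries and lines are group means; ENSDART00000190713.1 had 10.8 to 14.8 TPM in both BaP embryos, above the 6.86 to 9.93 TPM of father BaP embryos, and ENSDART00000098615.5 had 177 to 206 TPM in BaP eggs, below the 229 to 251 TPM of control eggs.

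Between both BaP and mother BaP embryos, a contrast that adds the father's diet to the mother's, no member passed in edgeR, where 0% of all transcripts did. There were 6 members (3.0%) at an unadjusted p under 0.05, against 6.61% of all, and DESeq2 called no member, against 0.233% of all. ENSDART00000012820.8 (1525 bases) had 17.9, 21.6, 19.2 and 18.6 TPM in both BaP embryos, against 14.98, 11.99, 15.04 and 9.42 TPM in mother BaP embryos, without overlap (log2 fold change 0.54 ± 0.14, SE, edgeR adjusted p = 0.709). It was 1 of 4 members wholly above, and none lay wholly below, against 2.97% and 0.683% of all transcripts. The members' median log2 fold change was 0.05 with 121 of 200 above 0, against a median of 0.02 and 53.6% of all transcripts. Rows as abundant in eggs had 70.1% above 0 where under 6.25% remained and 43.9% where over 25% to 50% remained. They had 19.6% above 0 where 50% to 200% remained and 9.6% where over 200% was reached. These shares include both BaP replicate 2. The members' median was -0.04 without both BaP replicate 2.

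Between mother BaP and father BaP embryos no member passed in edgeR, where 0.00324% of all transcripts did. There were 19 members (9.5%) at an unadjusted p under 0.05, against 10.6% of all, and DESeq2 called 2, against 1.02% of all. The members' median log2 fold change was -0.14 with 44 of 200 above 0, where all transcripts had a median of -0.000479 and 49.9% above 0. Rows as abundant in eggs had a median of -0.51 where under 6.25% remained and of -0.13 where 50% to 200% remained. TPM lay wholly above father BaP for 4 members and wholly below for 6, against 6.96% and 1.17% of all transcripts. ENSDART00000162875.2 (2061 bases) had 9.93, 8.55, 9.51 and 9.66 TPM in mother BaP embryos, against 12.6, 12.1, 12.3 and 12.7 TPM in father BaP embryos. The groups were tight and apart (log2 fold change -0.48 ± 0.12, SE), and the difference missed the threshold in edgeR (adjusted p = 0.160) and passed it in DESeq2 (adjusted p = 0.0128). The other member that DESeq2 called, ENSDART00000122099.3 (1383 bases), named for that count after its values were seen, averaged 41.7 ± 6.38 TPM in mother BaP embryos and 54.1 ± 8.75 TPM in father BaP embryos (SD, n = 4 each; log2 fold change -0.45 ± 0.12, SE, edgeR adjusted p = 0.201). ENSDART00000165065.3 (1185 bases, whole counts in all libraries) had 93.1, 54.0, 60.8 and 56.1 TPM in mother BaP embryos, against 51.3, 52.8, 43.0 and 42.3 TPM in father BaP embryos (log2 fold change 0.39 ± 0.17, SE, edgeR adjusted p = 0.422).

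Whether the effect of one parent's diet depended on the other's was tested as an interaction over the same 16 libraries. This contrast includes the control embryos that helped to choose the members. Its counts are given beside those of all transcripts, which does not remove the effect of that choice. Calls and p-values of members are therefore a description and not support for an interaction. No member passed in edgeR, where 0.9% of all transcripts did, with 7 members (3.5%) at an unadjusted p under 0.05, against 11.8% of all. DESeq2 called 2 members, against 2.18% of all. These were ENSDART00000190713.1 (interaction 0.66 ± 0.17 on the log2 scale, SE, edgeR adjusted p = 0.0986, DESeq2 adjusted p = 0.0124) and ENSDART00000054981.5 (interaction -0.40 ± 0.11, SE, edgeR adjusted p = 0.125, DESeq2 adjusted p = 0.0187). The members' median interaction was -0.12 with 54 of 200 above 0, against a median of 0.01 and 51.2% of all transcripts. Without both BaP replicate 2 the members' median was -0.23. The edgeR count was 2 without both BaP replicate 2 and 1 without father BaP replicate 3, with the share of all transcripts in those refits not given.

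BaP eggs were set against control eggs to see whether the stored amount of the members differed. The members were taken for their high level in these control egg libraries, which favours lower values in BaP eggs. Counts are given beside those of all transcripts, which does not remove this. The p-values of members are therefore a description and not support for an effect of the diet. The ratio of mean TPM in BaP eggs to control eggs had a median of 0.997 over members, with 10th and 90th percentiles of 0.873 and 1.07, and 166 members lay within 10% of the control level. In the fit of the 8 egg libraries the members' median log2 fold change was -0.05 with 60 of 200 above 0, against 49.4% of all transcripts. No member passed in edgeR, where 0% of 29023 transcripts did. There were 8 members (4.0%) at an unadjusted p under 0.05, against 3.6% of all. DESeq2 called 1, against 0.222% of its 47739 transcripts. TPM lay wholly above control eggs for 1 member and wholly below for 3, against 1.91% and 0.827% of all transcripts. The member called by DESeq2 was ENSDART00000098615.5 (1127 bases, whole counts in all libraries), with 177, 206, 183 and 184 TPM in BaP eggs, against 229, 251, 236 and 246 TPM in control eggs. The groups did not overlap, and the log2 fold change was -0.39 ± 0.08 (SE, edgeR unadjusted p = 0.000738 and adjusted p = 1.00, DESeq2 adjusted p = 0.00567). In mother BaP embryos, from mothers on the same diet as these eggs, it had 8.84, 12.9, 13.5 and 19.7 TPM, against 18.5, 12.8, 17.2 and 15.3 TPM in control embryos, and these ranges overlapped. ENSDART00000163175.2 (1618 bases) was wholly above, with 108, 109, 106 and 110.2 TPM in BaP eggs, against 92.5, 104.7, 101.7 and 97.8 TPM in control eggs (log2 fold change 0.10 ± 0.06, SE, edgeR adjusted p = 1.00).

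The fall from egg to embryo in the lineages of BaP-fed mothers was finally set beside that of the control lineage, in a fit of all 24 libraries. The control fall is the ratio that chose the members, so these differences are a description and no call or p is given. The members' median difference on the log2 scale was 0.16 for both BaP embryos, 0.03 without their replicate 2, and 0.09 for mother BaP embryos. ENSDART00000092082.7 (1637 bases) had 19.7, 25.9, 18.3 and 15.8 TPM in both BaP embryos and 125, 129, 131 and 149 TPM in BaP eggs. In the control lineage it had 13.3, 16.1, 11.2 and 14.9 TPM in embryos and 150.0, 149, 111 and 125 TPM in eggs. The difference of its log2 falls was 0.57 ± 0.20 (SE), and the embryo ranges of the lineages overlapped. In the other direction ENSDART00000081367.5 (2430 bases) had a difference of -0.40 ± 0.16 (SE). For mother BaP embryos ENSDART00000127832.4 (3886 bases) had a difference of 0.23 ± 0.11 and ENSDART00000168801.3 (1505 bases) one of -0.28 ± 0.12 (SE). The members named here were picked by smallest p in each direction of these same differences. Their differences and SEs therefore describe the pick and are not to be read as a test.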

How the data were processed

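Per the labels, total RNA depleted of ribosomal RNA was sequenced as read pairs. Per the submitters' processing notes, the tools were FastQC, Salmon and DESeq2, on build GRCz11; the sources used here give no versions and no annotation. Per the file headers, each of the 24 deposited tables lists, for 57192 transcript rows, TPM and the estimated count of reads (expected count, not always whole) beside transcript length and effective length. The bisulfite samples were not analysed here.

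Members and levels used the deposited TPM. For tests the deposited expected counts were rounded to whole numbers and fitted with edgeR 4.0.16 (R 4.3.3), using filterByExpr by group, TMM factors, robust glmQLFit, glmQLFTest and Benjamini-Hochberg adjustment over all transcripts tested, with calls at an adjusted p under 0.05. DESeq2 1.42.0 was the alternative, without filterByExpr. Its shares of all transcripts count rows left without an adjusted p as not called. Each SE is the absolute log2 fold change over the root of F. No 2 libraries held identical values.

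In each comparison the transcripts named were called members without overlap in TPM, or the member of smallest p in each direction without overlap; for interactions overlap was not required. For the egg to embryo fall they were the 2 of highest egg level. The members, lists and tests were chosen with earlier results of these data known. Preset gene lists could not be applied without symbols. Same-numbered embryo libraries did not deviate together (3 of 24 pairs correlated above 0.1, median 0.011, against -0.002 for other-numbered pairs). Of the 4 same-numbered egg pairs, 1 correlated above 0.1. They ran from 0.049 to 0.230 (median 0.073), and other-numbered egg pairs from -0.220 to 0.111 (median -0.030). The numbers were not taken as pairs, and a replicate block was fitted as an alternative.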

Additional observations from a re-analysis of the deposited data

Results flagged for a closer look

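In 136 groups of 4 libraries (group values and named members), 8 had 1 library whose gap to its neighbour, over the group's range, exceeded Dixon's 95% critical value; chance flags about 5% of groups and here it was 5.88%. The members made up 0.709% of TPM in control embryo replicate 2, above the other 3 controls. ENSDART00000190713.1 stood at 14.1 TPM in control embryo replicate 2 and 124 TPM in control egg replicate 1, each above its group, and ENSDART00000171137.2 at 185 TPM in control egg replicate 2. ENSDART00000148397.2 had 6.29 TPM in mother BaP embryo replicate 4, and ENSDART00000140947.2 had 215 TPM in BaP egg replicate 4. ENSDART00000180060.1 had 38.1 TPM in father BaP embryo replicate 2 and ENSDART00000184847.1 had 3.23 TPM in control embryo replicate 1, each below its group. No library of both BaP embryos, replicate 2 included, was among the 8.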

How the results depend on the processing

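With TMM-scaled count rates (CPM) in place of TPM the median remaining share was 22.1% in father BaP, 20.7% in mother BaP, 21.2% in both BaP and 19.4% in control embryos. With members chosen from the BaP groups it was 13.9% in father BaP, 13.6% in mother BaP and 13.1% in control embryos. It was 15.1% in both BaP embryos, which helped to make that choice. Over whole-count members, an alternative added after seeing the data, it was 17.4% in father BaP, 15.953% in mother BaP, 17.3% in both BaP and 16.2% in control embryos. As a share of summed TPM it was 16.2% in father BaP, 15.9% in mother BaP, 17.3% in both BaP and 15.1% in control embryos. Leaving out 1 library gave 14.7% to 15.6%, 14.8% to 15.3%, 14.6% to 17.1% and 14.2% to 14.7% in father BaP, mother BaP, both BaP and control embryos.

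DESeq2 called 1 member for father BaP versus control, 6 for both BaP versus father BaP, 2 for mother BaP versus father BaP, 2 for the interaction and 1 for eggs. The calls against control embryos, for the interaction and for eggs use control libraries that chose the members, and are a description. For both BaP versus father BaP the count was 1 without a filter, 1 with the replicate block and 0 in the 8-library fit. Leaving out 1 library gave 1 to 8 members there and 0 to 2 for the interaction. The shares of all transcripts in these refits are not given, so the counts are not a result about the members. Same-numbered libraries share only a number, and the replicate block changed no other count of members by over 1.5 times. Without both BaP replicate 2 the members' median log2 fold change was -0.0042 against control and -0.0445 against mother BaP embryos, and leaving out other libraries gave up to 0.1482 and 0.1064. ENSDART00000180060.1 had a log2 fold change of 0.228 in mother BaP embryos without BaP egg replicate 2 and down to -1.1698 without others. The causes were not tested. The other comparisons kept their count within 1.5 times.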
